A study of Rattus norvegicus with 16 samples.

Results

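The insulin-like growth factor genes of the rat intervertebral disc (IVD) were described cell class by cell class: the ligand Igf1, its receptor Igf1r, and the binding proteins Igfbp2, Igfbp3, Igfbp4, Igfbp5, Igfbp6 and Igfbp7. The 8 genes were chosen by name, and they are 8 of the 14930 genes listed in any of the 16 libraries. All 8 were listed in 3 of the 4 groups, and 7 in the group that lacks Igfbp2.

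The animals were 8 male Sprague-Dawley rats, 8 weeks old at surgery, in which a 27-gauge needle was passed once into each of 2 lower lumbar discs. From each rat the 2 injured discs were pooled as lumbar disc puncture (LDP), and 2 uninjured discs from higher in the same lumbar spine were pooled as control (CON). Disc level went with injury in each rat, so injury and disc level cannot be told apart. Rats 1 to 4 were taken after 2 weeks and rats 5 to 8 after 8 weeks, which gave 4 groups of 4 libraries read by 3′ single-cell RNA sequencing. Rat numbers are those in the sample labels, and CON and LDP of the same number were read as the same rat. CON discs therefore came from operated animals, each library mixed the cells of 2 discs, and the 2 times compare different rats, so that age, time after injury and any other difference between the 2 sets of rats cannot be told apart.

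IGF1 is a secreted growth factor that signals through the receptor tyrosine kinase IGF1R to Akt and mTOR, and in cartilage and disc it is known for raising the synthesis of aggrecan and collagen. Most IGF1 outside cells is held by binding proteins, which prolong its life, keep it from the receptor or release it near cells after cleavage by proteases such as PAPP-A. IGFBP3 and IGFBP5 can form a ternary complex with the acid-labile subunit, IGFBP4 is a classical inhibitor of IGF action, IGFBP6 prefers IGF2, and IGFBP7 is a distant relative that binds IGFs weakly and is abundant in vessel walls and matrix.

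The 16 libraries held 2221 to 15918 cells with median depths of 3861 to 8092 unique molecular identifiers (UMIs) per cell, and no pair of libraries shared more than 0.72% of its barcodes. Cells kept the class deposited for them: IVD cells, endothelial cells, a myeloid class, a lymphoid class and cells left unnamed. The deposited labels Chondrocyte, Macrophage and Immune cells are called IVD, myeloid and lymphoid here, after the study's text. IVD cells were split at 2 weeks into NP (nucleus pulposus, the disc core), OAF (the outer fibrous ring, or annulus) and IAF (its inner layers). The groups were clustered separately, there is no endothelial class in CON at 8 weeks, and no subclusters at 8 weeks. The endothelial class carried all 8 of its markers, with a summed 2392 to 4666 CPM (UMIs scaled to a common total per cell) over its libraries, and the myeloid class all 7 of its own, with 3436 to 13427 CPM. The 4 listed NP markers leaned with the NP name but overlapped, with a summed level in CON of 297 to 431 CPM in the NP subcluster and 225 to 385 CPM in the IAF subcluster. Of the genes the study used for these names, Cd24 averaged 342 CPM in NP and 285 CPM in IAF, and Col1a1 3630 CPM and 5651 CPM. The deposited subclusters were numbered only. Those of CON were named after the study's text, which gives number 1 as NP and describes IAF and OAF after it. Names of the LDP subclusters are a match made for this work, and over 13878 genes the LDP IAF profile correlated with CON NP at r = 0.85 and with CON IAF at r = 0.71. For NP and IAF, a difference between LDP and CON and a shift of the boundary between these clusters therefore cannot be told apart.

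The promoters of 4 binding proteins are shown because they form the pairs that shared a place of expression, Igfbp5 with Igfbp6 in the outer annulus and Igfbp3 with Igfbp4 in endothelial cells. Each line is RefSeq sequence of GRCr8 from 250 bases before to 50 bases after the annotated start, 5′ to 3′ on the strand of the gene, and all 8 members matched an entry. Capitals mark 3 motifs searched on both strands: the TATA box TATAAA, the GC box GGGCGG and the E-box CANNTG. Igfbp5 lies at chr9:81914138-81914437 on the minus strand, Igfbp6 at chr7:135154669-135154968 on the plus strand, Igfbp3 at chr14:86277895-86278194 on the minus strand and Igfbp4 at chr10:84491221-84491520 on the plus strand.
Igfbp5: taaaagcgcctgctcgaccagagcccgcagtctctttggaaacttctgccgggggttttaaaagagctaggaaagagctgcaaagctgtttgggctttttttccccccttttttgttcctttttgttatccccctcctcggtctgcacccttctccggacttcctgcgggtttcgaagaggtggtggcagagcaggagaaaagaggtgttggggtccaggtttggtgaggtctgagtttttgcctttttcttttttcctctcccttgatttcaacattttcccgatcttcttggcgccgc
Igfbp6: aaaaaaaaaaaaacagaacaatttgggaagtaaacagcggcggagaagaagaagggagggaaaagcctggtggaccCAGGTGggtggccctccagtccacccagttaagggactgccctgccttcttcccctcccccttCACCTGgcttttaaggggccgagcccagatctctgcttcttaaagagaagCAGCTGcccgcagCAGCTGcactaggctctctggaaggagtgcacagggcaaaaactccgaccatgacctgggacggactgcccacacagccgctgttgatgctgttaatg
Igfbp3: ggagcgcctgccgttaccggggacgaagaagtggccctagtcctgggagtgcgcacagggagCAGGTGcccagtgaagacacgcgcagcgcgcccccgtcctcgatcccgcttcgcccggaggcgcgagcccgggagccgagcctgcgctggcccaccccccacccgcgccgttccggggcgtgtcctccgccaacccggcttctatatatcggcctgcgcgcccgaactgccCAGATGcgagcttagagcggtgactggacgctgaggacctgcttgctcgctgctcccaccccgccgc
Igfbp4: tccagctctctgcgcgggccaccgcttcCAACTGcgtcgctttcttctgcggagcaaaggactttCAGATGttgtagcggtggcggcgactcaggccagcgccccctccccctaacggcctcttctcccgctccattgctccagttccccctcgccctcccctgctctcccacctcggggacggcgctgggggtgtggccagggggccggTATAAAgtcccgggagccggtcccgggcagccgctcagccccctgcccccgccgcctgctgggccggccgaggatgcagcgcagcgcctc

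The Igfbp6 window held 4 E-boxes and the Igfbp5 window none of the 3 motifs, with a GC content of 55.3% and 50.7%. The Igfbp3 and Igfbp4 windows were richer in GC, at 71.7% and 71.0%. The Igfbp3 window held 2 E-boxes and neither other motif, and the Igfbp4 window 2 E-boxes and 1 TATAAA. Of 33469 rat promoter windows of the same length, 14.2% held TATAAA, 33.1% GGGCGG and 72.1% CANNTG, and the median GC content was 51.7%. A match is a run of letters and says nothing of a factor bound there.

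The members differed in the cell class that held most of them. Values are the mean CPM over the cells of a class in 1 library, given as the mean of the libraries ± SD, and no test was made between classes because the classes were drawn from the same values. Igfbp5 and Igfbp6 also helped the study to name the OAF subcluster, so their OAF level is a description of that choice. Levels are compared between classes within 1 gene, not between genes.

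Igf1 was an outer annulus and myeloid transcript. In CON at 2 weeks it stood at 566 ± 197 CPM in OAF cells, 90.3 ± 49.0 CPM in the myeloid class, 20.1 ± 9.26 CPM in IAF cells, 14.5 ± 9.07 CPM in endothelial cells and 4.71 ± 1.29 CPM in NP cells (SD, n = 4 rats each). The unnamed cells, at 134 ± 57.5 CPM, came after the OAF. The myeloid libraries of this group held 25 to 259 cells, with 9 to 30 Igf1 UMIs each. The libraries of OAF did not overlap those of the unnamed cells, and those of the myeloid class did not overlap those of IAF, whereas IAF, endothelial and NP libraries overlapped with their neighbours in this order. On the log2(mean CPM + 1) scale the OAF exceeded the NP of the same library by 6.58 on average, a ratio of 95.9.

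Igfbp5 and Igfbp6 followed the same order from the OAF inwards. Igfbp5 in CON at 2 weeks was 7061 ± 2865 CPM in OAF, 540 ± 168 CPM in IAF and 319 ± 110.0 CPM in NP cells, and Igfbp6 was 2100 ± 490 CPM, 151 ± 32.2 CPM and 59.1 ± 12.9 CPM (SD, n = 4). Over the libraries the OAF exceeded the IAF by 3.65 ± 0.55 for Igfbp5 and by 3.78 ± 0.30 for Igfbp6 on the log2 scale (SD, n = 4), ratios of 12.6 and 13.7. In LDP the step from IAF to OAF was 4.85 on the log2 scale for both genes. For comparison with immune cells at 2 weeks, Igfbp5 stood at 125 ± 91.3 CPM in the CON myeloid class, against 319 CPM in NP cells. It stood at 26.4 CPM in the only CON lymphoid library of 2 weeks with at least 20 cells. The part of free RNA in the NP and IAF values was not tested.

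Igfbp3 and Igfbp4 were high in the endothelial class, and Igfbp4 also in the unnamed and OAF cells. In CON at 2 weeks Igfbp3 was 174 ± 16.6 CPM in endothelial cells, 25.4 ± 14.3 CPM in OAF cells and 1.48 ± 0.53 CPM in NP cells (SD, n = 4). Igfbp4 was 140 ± 40.03 CPM in endothelial cells, 69.7 ± 31.3 CPM in OAF cells and 1.99 ± 0.99 CPM in NP cells. The unnamed cells of CON at 2 weeks carried both, at 114 ± 63.1 CPM and 175 ± 50.2 CPM, and their libraries overlapped with the endothelial ones, as did those of OAF for Igfbp4. In the lymphoid class Igfbp4 averaged 9.34 to 19.5 CPM in the 4 groups, while Igfbp3 averaged at most 0.52 CPM.

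Igfbp7 was present in each class and abundant in the tissue cells. In CON at 2 weeks it averaged most in the unnamed cells, at 5377 ± 1429 CPM, and stood at 4696 ± 720 CPM in OAF, 2757 ± 441.3 CPM in endothelial, 2232 ± 331 CPM in IAF and 1980 ± 271 CPM in NP cells, and at 339 ± 122 CPM in the myeloid class (SD, n = 4). The unnamed and OAF libraries overlapped, the OAF libraries lay above the endothelial ones without overlap, and the endothelial, IAF and NP libraries overlapped. Igf1r was low and even, between 4.85 and 8.63 CPM on average in the CON classes with 4 libraries at 2 weeks. It was highest on average in the lymphoid class in each of the 4 groups, at 9.32 to 13.7 CPM, but no class stood apart from its neighbour in the order of levels in any group. In CON at 2 weeks the lymphoid value is that of 1 library, set against means of 4. Igfbp2 was low apart from 1 library: in CON OAF cells it was 1.31, 0, 0 and 48.1 CPM in rats 1 to 4, and in the myeloid class it was listed at 0 in each library of the 3 groups that list it.

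**Figure D1:**
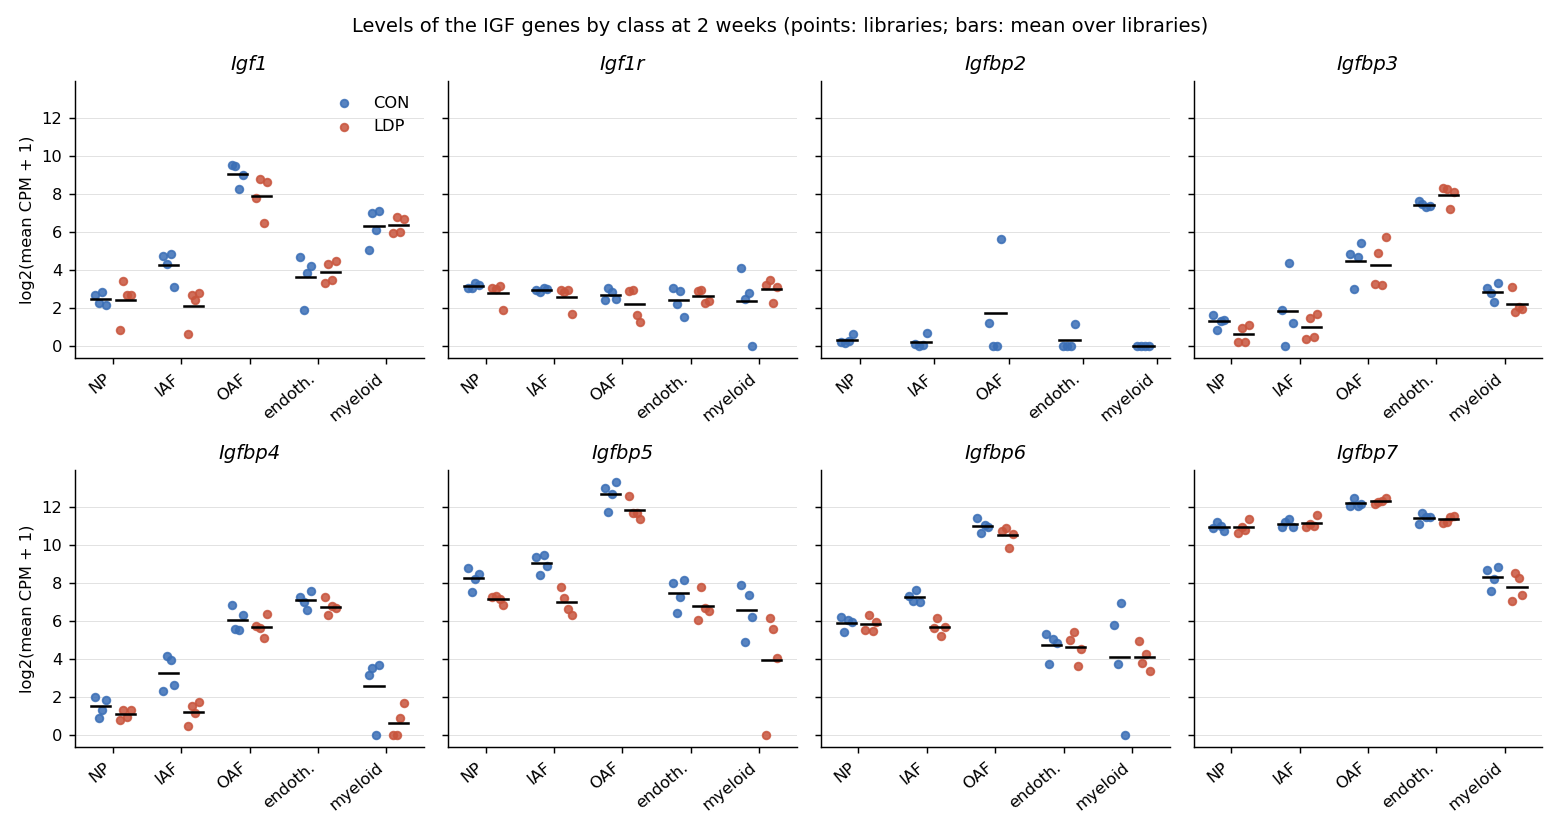
Each panel shows 1 of the 8 genes in NP, IAF, OAF, endothelial and myeloid cells at 2 weeks; a point is 1 library (CON blue, LDP red, at least 20 cells), a bar the mean of the 4, and the vertical axis is log2(mean CPM + 1). Igf1, Igfbp5 and Igfbp6 peak in OAF, Igfbp3 and Igfbp4 in endothelial cells, with OAF libraries of Igfbp4 reaching into their range, Igf1r is flat, and Igfbp2 has no LDP points because it is not listed there.

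Against this map, LDP was compared with CON within rats by limma on log2(mean CPM + 1), with the rat as block and Benjamini-Hochberg adjustment over all genes tested. The block does not separate injury from disc level. A gene was called at an adjusted p under 0.05, and Igfbp2 entered no fit. No member was called in any LDP against CON comparison by limma, in the IVD class at 2 weeks (0.121% of 11572 genes called) or 8 weeks (0.259%), in NP (0%), IAF (0%), OAF (1.19%), endothelial (0%) or myeloid cells (0%), or in whole libraries at 2 (0%) or 8 weeks (0.0082%). The members nevertheless sat on the lower side: 6 of the 7 tested were lower in LDP IVD cells at 2 weeks and 7 of 7 at 8 weeks, with 3 and 5 at an unadjusted p under 0.05. Of all genes tested, 64.1% and 71.5% were lower in LDP at the 2 times, and 1347 and 2427 of 11572 had an unadjusted p under 0.05. The members' median log2 change was -0.68 at 2 weeks against -0.08 over all genes, and -1.06 at 8 weeks against -0.16. The outer annulus and tendon markers were also lower in these cells, 6 of 7 at 2 weeks (median log2 change -0.35) and 7 of 7 at 8 weeks (median -0.93), with 0 called, and summed to 2016 to 3482 CPM in CON and 902 to 2279 CPM in LDP at 8 weeks. The 5 endothelial markers tested had a median of -1.79 at 2 weeks and -0.60 at 8 weeks, with 4 of 5 lower at each time and 0 called. Fibroblast and synovial markers had a median of -0.80 at 2 weeks (5 of 5 lower) and -0.44 at 8 weeks (4 of 5), and the 3 RNA and dissociation stress markers tested a median of -0.58 and -0.26 with 3 of 3 lower, none called. Other lists were on the higher side in LDP at 2 weeks, with medians of 1.33 for 3 Schwann markers, 1.25 for 3 lymphoid markers, 1.33 for 2 granulocyte markers, 0.62 for 3 bone and growth plate markers and 0.68 for 6 pericyte and smooth muscle markers, of which 5 were higher, and again none was called. The part of these shifts in the members' values was not tested.

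The other tools split on this. edgeR called none of the 7 in any LDP against CON comparison. DESeq2 called, all lower in LDP, Igf1 and Igfbp5 in IVD cells at 2 weeks, where 0.899% of genes were called lower by it, and Igfbp3, Igfbp5 and Igfbp6 at 8 weeks (2.4%). By the same tool Igfbp5 was called in NP (0.897%), Igfbp4 and Igfbp5 in IAF (1.21%) and Igf1 in OAF (0.24%), and in whole libraries Igfbp4 and Igfbp5 at 2 weeks (0.451%) and Igfbp5 and Igfbp6 at 8 weeks (0.902%). Whole libraries also mix the classes in unequal shares, with IVD cells at 72.5% to 96.4% of cells at 2 weeks and 59.1% to 96.7% at 8 weeks. In them the endothelial markers were lower in LDP at 2 weeks, 8 of 8 with a median log2 change of -0.82, as were 5 of 5 fibroblast and synovial markers (-0.85), while the 5 lymphoid and 2 granulocyte markers tested were each higher (2.18 and 2.58). At 8 weeks the medians of these 4 lists were -0.69, -0.51, 0.92 and 2.31. Outer annulus and tendon markers were lower at both times, 6 of 7 (median -0.41) and 7 of 7 (-0.94). Pericyte and smooth muscle markers were lower in 5 of 6 (-0.80) at 2 weeks and 4 of 6 (-0.23) at 8 weeks. Stress markers were lower in 3 of 3 (-0.74) and 1 of 3 (0.08). In these lists 0 markers were called at either time, and the part of these shifts in the whole-library values was not tested. Whether the LDP difference itself changed between 2 and 8 weeks was tested as an interaction, which called no member in IVD cells (0% of genes) or in whole libraries (0%), with an adjusted p of 1.00 for each member by limma and none at an unadjusted p under 0.05.

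**Figure D2:**
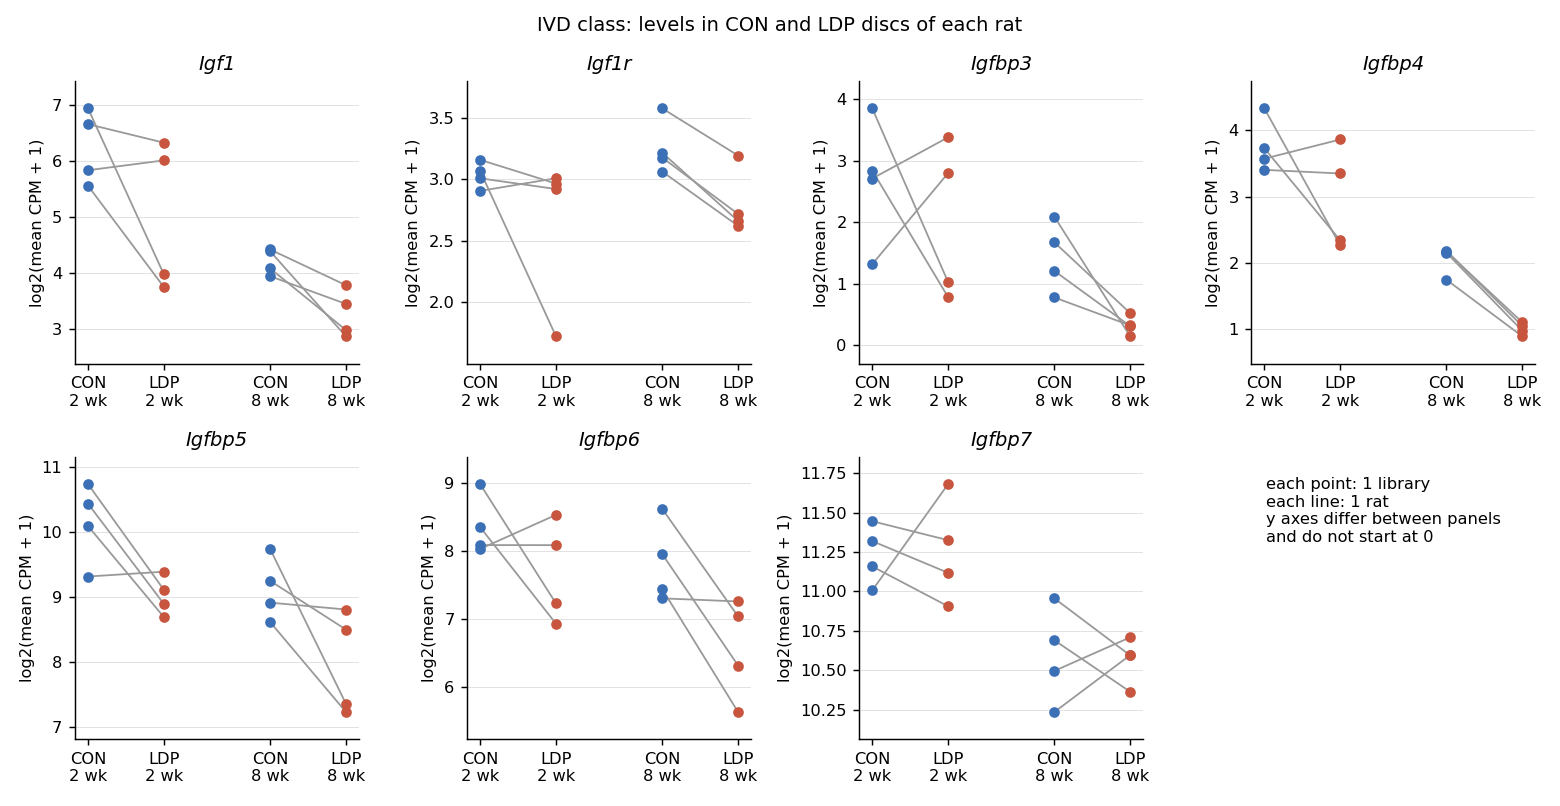
Each panel shows 1 of the 7 tested genes in IVD cells, with log2(mean CPM + 1) on vertical axes that differ between panels and do not start at 0; a point is 1 library and a line joins CON and LDP of the same rat at 2 and 8 weeks. The lines of Igf1, Igf1r, Igfbp3, Igfbp4, Igfbp5 and Igfbp6 slope down in each rat at 8 weeks, and those of Igfbp7 go both ways. Of all genes tested in these cells, 71.5% had a log2 change below 0 at 8 weeks. The share of all genes lower in each rat is not given here, for these or the other cell sets.

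Igf1, the ligand, was lower in the injured OAF of each rat. In OAF cells it measured 735, 706, 312 and 511 CPM in CON of rats 1 to 4 and 224, 448, 86.8 and 393 CPM in LDP. The groups overlapped, since LDP of rats 2 and 4 lay above CON of rat 3. In log2 terms the change was -1.14 (SE 0.28, 95% CI -1.81 to -0.48), 2.21-fold lower, with an adjusted p of 0.18 by limma.

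Over the IVD class at 2 weeks, Igf1 measured 122, 100.2, 46.2 and 56.2 CPM in CON and 14.8, 79.5, 12.5 and 63.6 CPM in LDP. LDP lay far below CON in rats 1 and 3, slightly below in rat 2 and above it in rat 4. The share of IVD cells that were OAF, the compartment with most Igf1, was 14.6% in CON and 6.29% in LDP of rat 1, 13.4% and 16.4% in rat 2, 9.28% and 9.27% in rat 3, and 10.2% and 14.98% in rat 4, and its part in these values was not tested. The log2 change was -1.23 (SE 0.42), with an adjusted p of 0.32. At 8 weeks the CON values were 20.5, 14.4, 19.99 and 15.97 CPM and the LDP values 12.8, 9.93, 6.32 and 6.91 CPM. Here the groups did not overlap, as held for 11.3% of all genes in this direction, and the log2 change was -0.94 (SE 0.42), 1.92-fold lower, with an adjusted p of 0.24.

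The inner compartments held little Igf1. NP cells averaged 4.71 CPM in CON and 5.31 CPM in LDP, and the mean of the log2 changes within rats was -0.08. IAF cells measured 25.9, 19.0, 27.98 and 7.45 CPM in CON and 0.52, 5.50, 4.36 and 5.83 CPM in LDP, without overlap, as in 7.21% of genes; the log2 change was -2.13 (SE 0.52) with an adjusted p of 0.18. Myeloid cells measured 32.6, 126, 66.8 and 136 CPM in CON and 60.0, 109, 63.7 and 103 CPM in LDP at 2 weeks, with groups that overlapped in full. The CON values rest on 259, 62, 83 and 25 cells with 20, 30, 28 and 9 Igf1 UMIs. The LDP values rest on 32, 111, 369 and 212 cells with 8, 37, 129 and 117 UMIs.

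Igf1r, the receptor, was close to its CON level in the injured IVD cells of 3 rats at 2 weeks. IVD cells at 2 weeks measured 6.49, 7.04, 7.92 and 7.38 CPM in CON and 7.04, 6.57, 6.80 and 2.30 CPM in LDP, so that 1 library, LDP of rat 4, lay far under the rest. The log2 change was -0.38 (SE 0.21, 95% CI -0.84 to 0.08), beside -0.36 for the NP, -0.36 for the IAF and -0.52 for the OAF subcluster. Within rats it ran from -1.34 to 0.10 in IVD cells, -1.275 to 0.04 in NP, -1.33 to -0.005 in IAF and -1.23 to 0.46 in OAF. In IAF cells LDP of rat 4 again lay far under the rest, at 2.16 CPM. At 8 weeks each rat was lower in LDP, with means of 8.64 ± 1.56 and 6.05 ± 1.404 CPM (SD, n = 4) and a log2 change of -0.46 (SE 0.21), adjusted p 0.24 by limma. Without the pair of rat 4 the same 8-week change had an adjusted p of 0.0455, in a fit that called 4.47% of all genes, and in the fit on the 8 libraries of 8 weeks alone, which also lacks that pair, it had an adjusted p of 0.11.

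Igfbp5, which binds IGF1 and matrix, was lower in injured IVD cells in 3 of 4 rats at 2 weeks and in 4 of 4 at 8 weeks. IVD cells at 2 weeks measured 1698, 634, 1086 and 1378 CPM in CON and 550, 668, 411 and 473 CPM in LDP. The LDP libraries lay below 3 of the 4 CON libraries, and CON of rat 2 lay among them. None of the 7 members separated the groups at this time, when 4.36% of genes had each LDP library below each CON library. This made a log2 change of -1.12 (SE 0.35, 95% CI -1.91 to -0.34), 2.18-fold lower, with an adjusted p of 0.29. At 8 weeks the values were 851, 480, 390.2 and 606 CPM in CON and 163, 446, 149 and 360 CPM in LDP, lower in each rat but overlapping. The log2 change was -1.15 (SE 0.35) with an adjusted p of 0.14.

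In each subcluster Igfbp5 was lower in LDP in 4 of 4 rats. NP cells measured 444, 184, 289 and 358 CPM in CON and 152, 155, 143 and 113 CPM in LDP, without overlap, which held for 2.75% of genes. The log2 change was -1.12 (SE 0.24), 2.17-fold lower, with an adjusted p of 0.26 by limma. IAF cells measured 654, 339, 700.2 and 468 CPM in CON and 216, 147, 97.8 and 78.6 CPM in LDP. The groups did not overlap, as in 7.21% of genes in this direction, and the log2 change was -2.05 (SE 0.29, 95% CI -2.71 to -1.38), 4.13-fold lower. The adjusted p by limma was 0.0736, equal to the smallest in that comparison. The adjustment can give this value to many genes alike, so it does not rank Igfbp5 first. In OAF cells, where the gene was highest, the values were 8323, 3357, 6504 and 10060 CPM in CON and 6103, 3306, 3285 and 2614 CPM in LDP. Each rat was lower in LDP and the groups overlapped (of all genes, 4.02% did not in this direction), with a log2 change of -0.85 (SE 0.31), 1.80-fold lower, and an adjusted p of 0.38.

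Other markers moved with these values. In IAF cells the summed level of the outer annulus and tendon markers was 3650 to 9159 CPM in CON and 2087 to 2840 CPM in LDP, 7 of 7 of them lower and 0 called, and that of the endothelial markers was 22.6 to 251 CPM and 13.3 to 28.7 CPM, while the median depth was 2442 to 3789 UMIs in CON and 4100 to 6403 UMIs in LDP. In OAF cells the pericyte and smooth muscle markers summed to 93.8 to 157 CPM in CON and 605 to 921 CPM in LDP, with 5 of 7 called higher, and the Schwann markers to 2.28 to 6.08 CPM and 92.5 to 634 CPM, with 4 of 4 called higher, while 5 of 5 fibroblast and synovial markers were lower (median log2 change -0.82, 0 called). The 3 stress markers tested were lower in NP (median -0.76) and IAF (median -0.89), and in NP 3 of 4 endothelial markers were lower (median -1.26), none of them called. With cells that held at least 2 markers of another type left out, the log2 change of Igfbp5 was -2.08 in IAF, -0.81 in OAF, -1.14 in NP and -1.23 in IVD cells at 2 weeks. The part of the other marker shifts in these results was not tested.

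Igfbp6, the IGF2-preferring member, was lower in LDP of each rat in the IAF and in IVD cells at 8 weeks. IAF cells measured 159, 129, 194 and 124 CPM in CON and 47.8, 70.3, 35.3 and 49.8 CPM in LDP, with no overlap, as in 7.21% of genes. It gave a log2 change of -1.58 (SE 0.26), 2.98-fold lower, with an adjusted p of 0.0963 by limma. IVD cells at 8 weeks measured 247, 157, 173 and 393 CPM in CON and 78.9, 152, 48.8 and 131 CPM in LDP, lower in each rat and without overlap, as in 11.3% of genes. There the log2 change was -1.27 (SE 0.38, 95% CI -2.11 to -0.42), 2.41-fold lower, with an adjusted p of 0.14.

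In the other compartments the rats did not line up. NP cells averaged 59.1 ± 12.9 CPM in CON and 56.5 ± 16.04 CPM in LDP (SD, n = 4), a log2 change of -0.08 with a 95% CI of -0.69 to 0.54. OAF cells measured 2747, 1572, 2137 and 1946 CPM in CON and 1687, 1879, 929 and 1498 CPM in LDP, with rat 2 higher in LDP and the other 3 lower, a log2 change of -0.51 (SE 0.25) and an adjusted p of 0.52. IVD cells at 2 weeks gave a log2 change of -0.67 (SE 0.38), again with rat 2 on the other side.

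**Figure D3:**
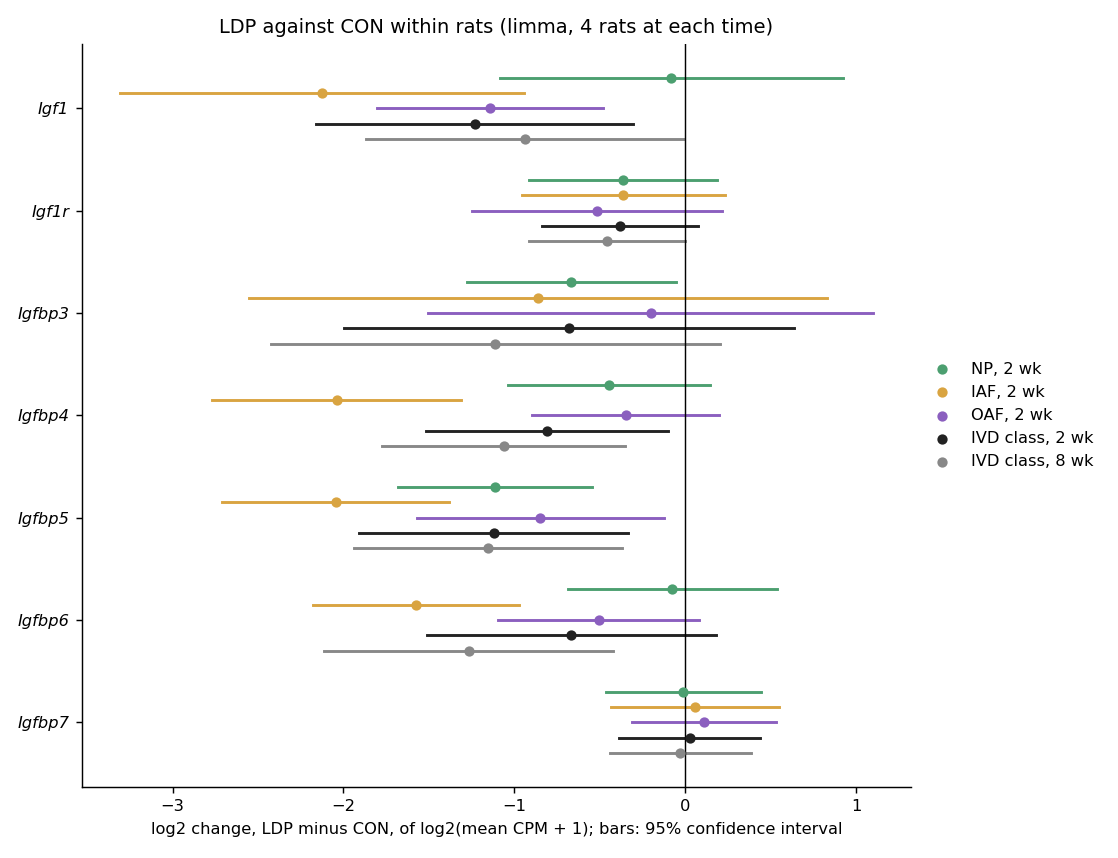
Points are log2 changes of LDP against CON by limma with 95% confidence intervals for the 7 tested genes in NP, IAF and OAF cells and the IVD class at 2 weeks and in the IVD class at 8 weeks; the line at 0 is no difference. In IAF the points of Igf1, Igfbp4 and Igfbp5 lie near -2, those of Igfbp7 lie near 0 throughout, and the NP point of Igfbp5 stands off from 0 while that of Igfbp6 does not.

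Igfbp4, the inhibitory member, was held among disc cells mostly by the OAF, where it measured 111, 45.9, 45.0 and 76.7 CPM in CON and 51.9, 47.5, 33.4 and 79.9 CPM in LDP. The groups overlapped, with rats 2 and 4 higher in LDP, and the log2 change was -0.35 (SE 0.23) with an adjusted p of 0.63 by limma. Without cells holding markers of another type the OAF means were 67.6 CPM in CON and 38.0 CPM in LDP. Each of the 4 rats was then lower in LDP, with overlapping groups. That log2 change was -0.90 (SE 0.30) with an adjusted p of 0.60 by limma. Igfbp4 was scarce in the IAF and NP. IAF cells measured 3.88, 16.9, 14.1 and 5.05 CPM in CON and 0.36, 1.85, 1.16 and 2.32 CPM in LDP, without overlap, as in 7.21% of genes. The log2 change was -2.04 (SE 0.32), 4.11-fold lower on this scale, with an adjusted p of 0.0838. IVD cells at 8 weeks measured 3.48, 3.53, 3.43 and 2.34 CPM in CON and 1.14, 1.05, 0.95 and 0.84 CPM in LDP. The groups were apart, as for 11.3% of genes in this direction, with a log2 change of -1.06 (SE 0.32) and an adjusted p of 0.14. Fitted on the 8 libraries of 8 weeks alone the change was the same with a smaller SE of 0.13, and Igfbp4 was called with an adjusted p of 0.0176, as were 1.04% of all genes in that fit. In the fit on all 16 libraries, without cells holding markers of another type, the change was -0.68 (SE 0.34). Its adjusted p was 0.28, to be set beside the 0.14 of that fit with all cells.

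In endothelial cells Igfbp4 measured 150, 126, 94.6 and 190 CPM in CON and 150, 77.8, 109 and 101 CPM in LDP at 2 weeks, a log2 change of -0.35 (SE 0.26) with an adjusted p of 0.98. Since CON at 8 weeks has no endothelial class, cells with a UMI of at least 2 of 8 endothelial markers were taken from any class, a choice made after the values were seen. In these cells Igfbp4 at 8 weeks was 104, 85.1, 113 and 78.4 CPM in CON and 44.9, 72.7, 61.9 and 60.8 CPM in LDP. Each rat was lower and the libraries did not overlap, as held for 2.67% of genes, with a log2 change of -0.66 (SE 0.31, 95% CI -1.35 to 0.03) and an adjusted p of 0.45. No gene was called in them at 2 weeks (0%) or 8 weeks (0%) by limma, and of the 7 members 0 and 1 (Igfbp6) had an unadjusted p under 0.05, beside 1.11% and 11.5% of all genes.

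Igfbp3, the main carrier of circulating IGF, leaned the other way in the vessels at 2 weeks. Endothelial cells measured 197, 175, 159 and 165 CPM in CON and 321, 309, 147 and 273 CPM in LDP, higher in 3 of 4 rats. The mean log2 change was 0.53 (SE 0.24, 95% CI -0.04 to 1.11) with an adjusted p of 0.94. The pericyte and smooth muscle markers of the same class were higher in LDP, 7 of 7 with a median log2 change of 1.26 and 0 called, and summed to 23.0 to 84.1 CPM in CON and 111 to 228 CPM in LDP; their part in the Igfbp3 value was not tested. In cells picked by endothelial markers it was higher in 4 of 4 rats at 2 weeks, with means of 157 ± 25.2 and 229 ± 65.3 CPM (SD, n = 4) and a log2 change of 0.50. Within rats that change ran from 0.07 to 0.705. In rat 3 the markers picked 1697 CON and 660 LDP cells, while the endothelial class held 671 and 612. These counts lay closer together in the other rats. At 8 weeks the cells picked by markers gave 152 ± 38.9 CPM in CON and 127 ± 34.1 CPM in LDP, a log2 change of -0.26. In IVD cells Igfbp3 was barely detected at 8 weeks, with 2.19, 3.26, 0.72 and 1.31 CPM in CON and 0.44, 0.11, 0.25 and 0.24 CPM in LDP, a log2 change of -1.11 (SE 0.59) and an adjusted p of 0.30. At this level the value depends on the added 1 CPM. The CON mean was 7.18 times the LDP mean, and the log2 change was -2.37 by edgeR (adjusted p 0.19) and -2.50 by DESeq2 (adjusted p 0.00865). Each LDP library lay under 1 CPM, and on the 8 libraries of 8 weeks alone Igfbp3 did not pass the filter in IVD cells. Without cells holding markers of another type the CON mean was 5.82 times the LDP mean, with a log2 change of -0.93 (adjusted p 0.35 by limma). The part of endothelial cells in these values was not tested.

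**Figure D4:**
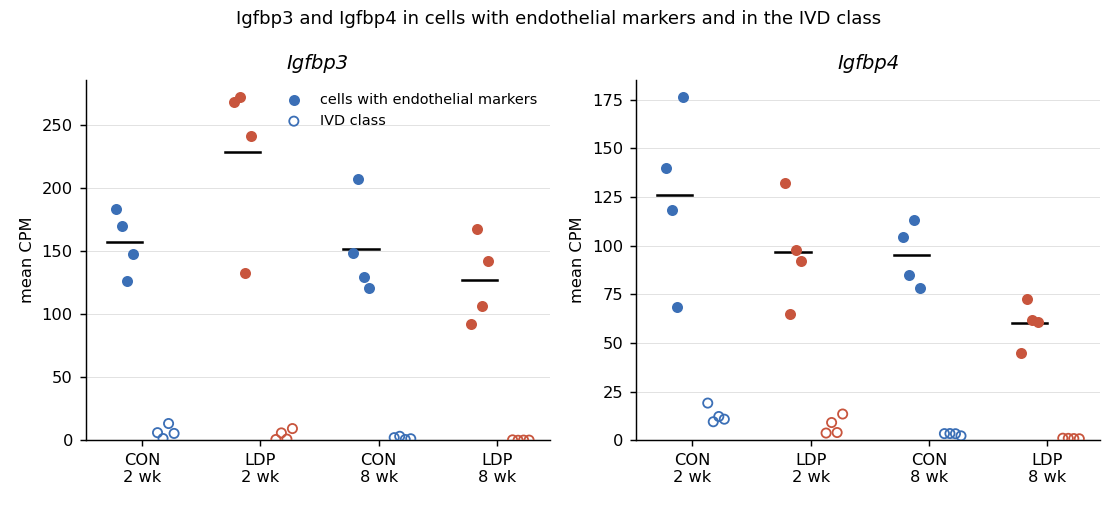
Mean CPM of Igfbp3 and Igfbp4 per library in cells with at least 2 of 8 endothelial markers (filled points, bar at the mean of 4) and in the IVD class (open points) in the 4 groups. IVD cells lie near the bottom of each panel; Igfbp3 spans 133 to 272 CPM in LDP at 2 weeks against 127 to 184 CPM in CON, and Igfbp4 at 8 weeks spans 44.9 to 72.7 CPM in LDP against 78.4 to 113 CPM in CON.

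Igfbp7 had the smallest log2 change of the 7 members in IVD cells at both times. IVD cells at 2 weeks measured 2285, 2787, 2554 and 2056 CPM in CON and 1917, 2564, 2221 and 3281 CPM in LDP. Rats 1 to 3 were lower and rat 4 higher, and the log2 change was 0.02 with a 95% CI of -0.39 to 0.44. At 8 weeks the values were 1443, 1204, 1652 and 1986 CPM in CON and 1673, 1547, 1317 and 1545 CPM in LDP, a log2 change of -0.03 with a 95% CI of -0.44 to 0.38. In OAF cells the log2 change was 0.11, from 4696 ± 720 to 5033 ± 465 CPM (SD, n = 4).

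Igfbp2 entered no comparison, since it is not listed in LDP at 2 weeks and lay under 1 CPM in each IVD library at 8 weeks. IVD cells averaged 0.20 CPM in CON and 0.13 CPM in LDP at 8 weeks, and in CON at 2 weeks they measured 0.30, 0.08, 0.09 and 5.37 CPM.

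To place the differences without the separate clusterings, disc cells were picked in all 16 libraries by 1 rule, added after the values were seen: at least 3 of 5 disc markers (Acan, Col2a1, Sox9, Comp, Fmod) and fewer than 2 markers of each other type. They were then called outer with a UMI of at least 2 of 6 outer annulus markers (Lum, Myoc, Fibin, Tnmd, Scx, Thbs4) and inner with none. Outer cells were 29.8% to 39.4% of disc cells in CON and 25.6% to 43.6% in LDP at 2 weeks, and 21.1% to 31.5% and 23.7% to 28.7% at 8 weeks. Because the rule counts UMIs of markers, depth sets how strict it is: the median depth of inner cells was 3479 to 6473 UMIs in CON and 4363 to 6305 UMIs in LDP at 2 weeks, and 4481 to 6740 UMIs and 5551 to 9402 UMIs at 8 weeks. That of outer cells was 5112 to 8959 and 5878 to 8933 UMIs at 2 weeks, and 7067 to 9090 and 7934 to 10680 UMIs at 8 weeks.

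In outer cells at 8 weeks Igf1 and Igfbp6 were lower in LDP of each rat. Igf1 measured 33.8, 20.9, 29.6 and 24.4 CPM in CON and 14.3, 13.04, 8.33 and 9.78 CPM in LDP, a log2 change of -1.19 (SE 0.32) with an adjusted p of 0.11. Igfbp6 measured 568, 479, 444 and 758 CPM in CON and 132, 443, 142 and 324 CPM in LDP, a log2 change of -1.27 (SE 0.34) with an adjusted p of 0.11. Both were lower in each rat without overlap, as were Igf1r and Igfbp3, which makes 4 of 7 members beside 8.99% of all genes in that direction. Of these, Igf1r had a log2 change of -0.32 with an adjusted p of 0.38 by limma. Igfbp3 lay near the added 1 CPM, at 1.32 CPM in CON and 0.42 CPM in LDP, with an adjusted p of 0.46. Igfbp5 measured 2633, 1574, 1020 and 1407 CPM in CON and 477, 1513, 444 and 1155 CPM in LDP, lower in each rat with overlap, a log2 change of -1.001 and an adjusted p of 0.21.

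At 2 weeks the outer cells varied more. Igf1 was lower in each rat, with 222, 197, 88.3 and 142 CPM in CON and 37.6, 177, 26.8 and 86.1 CPM in LDP, a log2 change of -1.27 (SE 0.32) and an adjusted p of 0.26. Igfbp5 was lower in 3 of 4 rats, with a log2 change of -1.19 and an adjusted p of 0.39. Only Igf1r of the 7 did not overlap, where 4.48% of genes did not.

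Inner cells held little of these transcripts, and gave small log2 changes for Igf1 at both times and Igfbp6 at 8 weeks. Igf1 averaged 5.06 and 4.60 CPM at 2 weeks and 5.53 and 4.53 CPM at 8 weeks in CON and LDP, with a log2 change of -0.20 at both times, and Igfbp6 at 8 weeks averaged 17.96 and 17.5 CPM, a log2 change of -0.17. Igfbp5 was low in the inner cells of LDP, with 118, 31.6, 183 and 98.2 CPM in CON and 35.1, 57.7, 20.9 and 15.4 CPM in LDP at 2 weeks, and 71.2, 38.6, 52.9 and 41.1 CPM against 3.53, 9.22, 22.4 and 34.1 CPM at 8 weeks. The log2 changes were -1.64 and -1.85, with adjusted p of 0.42 and 0.33 by limma. At 8 weeks Igfbp5 was the member without overlap (6.29% of genes) and at 2 weeks Igfbp4 (2.31%). At 2 weeks Igfbp5 averaged 108 CPM in CON and 32.3 CPM in LDP inner cells, beside 125 and 32.8 CPM in the myeloid class. There the log2 change was -2.655 (SE 1.424), lower in 3 of 4 rats, and that of Igfbp4 was -1.95 (SE 0.81), from 7.50 to 0.76 CPM. The myeloid class held only 25 to 259 cells per CON library and 32 to 369 per LDP library at 2 weeks. Of the 7 members 5 were lower in myeloid cells, beside 56.1% of all genes, and 0 had an unadjusted p under 0.05 by limma. The part of free RNA in these values was not tested. Whether the changes of outer and inner cells differ was not tested.

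**Figure D5:**
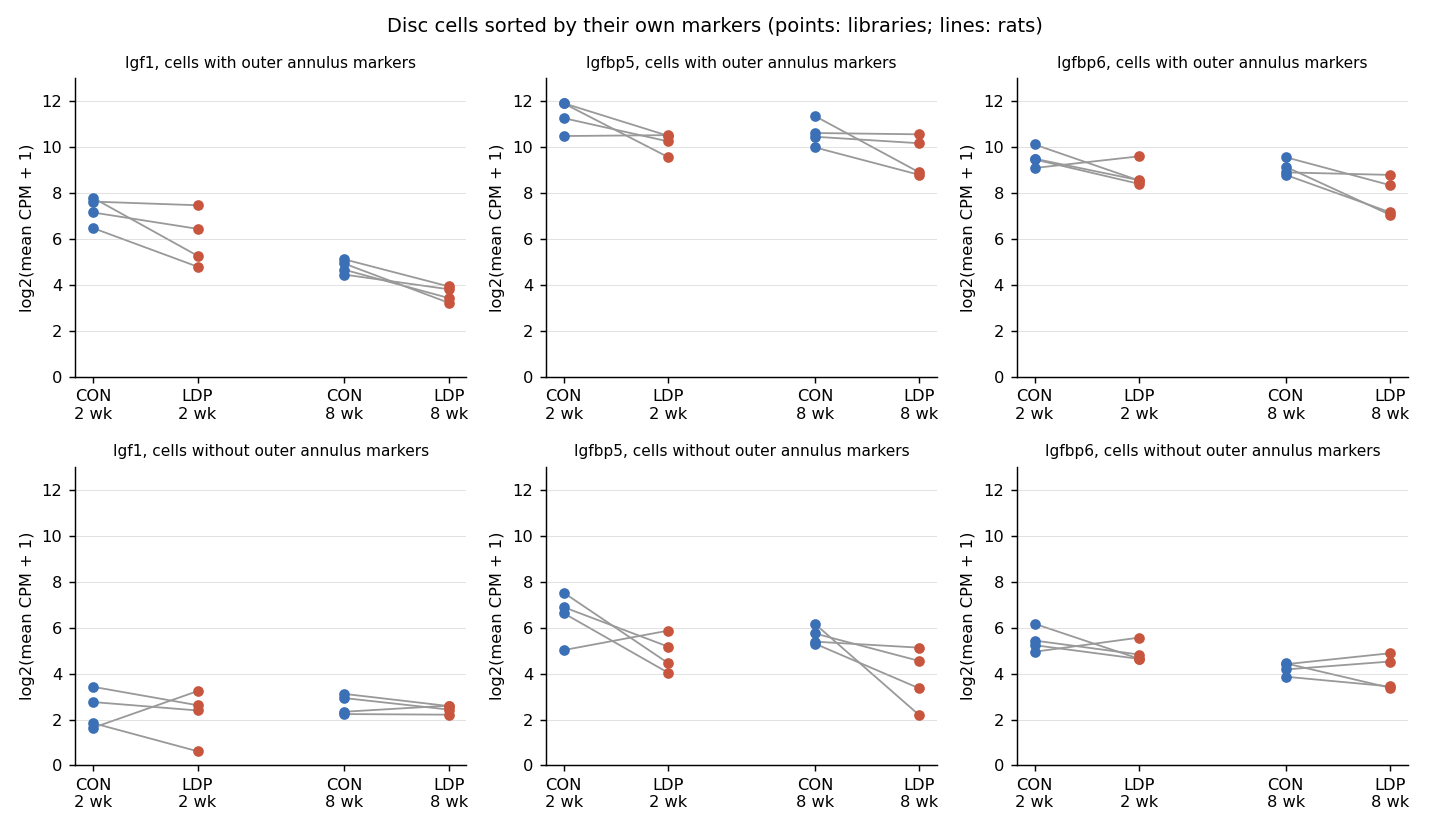
Igf1, Igfbp5 and Igfbp6 as log2(mean CPM + 1) in disc cells with outer annulus markers (top row) and without them (bottom row); a point is 1 library and a line joins CON and LDP of a rat at 2 and 8 weeks. In outer cells the lines of Igf1 go down in each rat at both times; in inner cells those of Igf1 and Igfbp6 go both ways and those of Igfbp5 go down in each rat at 8 weeks.

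The members also differed between the 2 times in uninjured discs, where the 8 CON libraries were compared without a block. Of 7 members 4 were called, all lower at 8 weeks, beside 18.5% of all genes called and a median log2 change of -0.02 over all genes. Igf1 fell in IVD cells from 81.2 ± 35.95 to 17.7 ± 2.98 CPM (SD, n = 4), a log2 change of -2.04 (SE 0.28), 4.11-fold lower, with an adjusted p of 0.0023 by limma. Igfbp4 fell from 12.98 ± 4.27 to 3.20 ± 0.57 CPM, a log2 change of -1.70 (SE 0.19), adjusted p 0.00144.

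Igfbp7 fell from 2421 ± 318 to 1571 ± 331 CPM, a log2 change of -0.64 (SE 0.16) with an adjusted p of 0.0233 by limma, a call that was lost without rat 3 and without rat 5, and the libraries of these 3 genes did not overlap between the times. Igfbp5 fell from 1199 ± 452 to 582 ± 199.9 CPM with overlapping libraries, a log2 change of -1.01 (SE 0.31) and an adjusted p of 0.0458 that no longer passed in 10 of 15 alternative settings. Igfbp3 and Igfbp6 gave -1.24 and -0.53 with adjusted p of 0.0845 and 0.23, and Igf1r gave 0.22 with an adjusted p of 0.24. The disc markers moved as well, summing to 19557 to 28739 CPM at 2 weeks and 9031 to 13591 CPM at 8 weeks, with 3 of 5 called lower. Also called lower were 5 of 7 outer annulus and tendon markers, 3 of 5 endothelial markers (median log2 change -1.02), 3 of 5 fibroblast and synovial markers (median -0.77) and 2 of 6 pericyte and smooth muscle markers, and 1 of 3 Schwann markers was called higher. The part of these shifts in the fall of the members was not tested.

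The rest of the pathway was followed through 34 other genes for ligands, receptors, carriers, proteases, adaptors and signalling, of which 30 were tested in IVD cells. In LDP against CON none was called by limma in any class. At 2 weeks 27 of 30 were lower, beside 64.1% of all genes, and 11 had an unadjusted p under 0.05, beside 11.6%, with a median log2 change of -0.29. At 8 weeks 28 were lower, beside 71.5%, and 14 were under 0.05, beside 2427 of 11572, with a median of -0.38.

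Single genes of that list show the range. Adamts1, a metalloprotease, averaged 14.6 CPM in CON and 5.46 CPM in LDP at 8 weeks, the lowest log2 change of the list there at -1.40 (adjusted p 0.0909 by limma), and in IAF cells at 2 weeks 20.3 and 5.11 CPM, -1.63 (adjusted p 0.13). Stc2, an inhibitor of PAPP-A, was on the higher side in each of these, with 27.2 CPM in CON and 49.6 CPM in LDP IVD cells at 2 weeks, a log2 change of 0.69 (adjusted p 0.34), 0.80 in NP, 0.57 in IAF and 0.31 in IVD cells at 8 weeks. Irs2, an adaptor below the receptor, was 77.8 and 35.4 CPM in NP cells, the lowest of the list there at -0.98. The lowest in IVD cells at 2 weeks was Esm1, an endothelial proteoglycan, with 3.81 and 0.66 CPM and a log2 change of -1.29 (adjusted p 0.35).

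In OAF cells the ends of the list were Ghr, the growth hormone receptor, at -0.63 and Stc1, a relative of Stc2, at 0.52. In endothelial cells they were Kazald1, an IGFBP-related protein, at -0.97 and Esm1 at 0.60, and in myeloid cells Socs3, an inhibitor of cytokine signalling, at -1.90 and Pik3ca, a catalytic subunit of PI3-kinase, at 1.13. In whole libraries they were Adamts1 at -1.19 and Stc2 at 0.62 at 2 weeks and Pappa2, a protease related to PAPP-A, at -0.95 and Grb14, an inhibitory adaptor, at 0.35 at 8 weeks. For the change of the LDP difference between the times they were Adamts1 at -0.60 and Esm1 at 1.05 in IVD cells and Pik3ca at -0.50 and Adamts1 at 0.81 in whole libraries, each with an adjusted p of 1.00 by limma.

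Between the times, 7 of the 30 tested were called in CON IVD cells, each lower at 8 weeks, beside the 18.5% of all genes called in either direction. Igf2, the second ligand, fell furthest, from 15.5 to 2.15 CPM with a log2 change of -2.23 (adjusted p 0.00426 by limma), and Igf2r, the receptor that clears it, fell from 148 to 94.5 CPM with -0.64. The others were Kazald1 at -1.13, Adamts1 at -0.91, Socs2 (a target of growth hormone signalling) at -0.86, Irs1 at -0.53 and Ghr at -0.43. The highest of the list was Pappa2 at 0.71 with an adjusted p of 0.0917.

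Genes with the pattern most like each member were found over 40 values, the 5 classes of the 8 libraries at 2 weeks, among 13173 genes. These correlations follow the classes, share libraries and depth, and are given as descriptions. Igfbp6 was closest to C1r (r = 0.98), Tnc and Mmp2 (r = 0.97 each), Igfbp5 to Col12a1 (r = 0.94), Nov and Gulp1 (r = 0.92 each), and Igf1 to Lgals1, Cd302 (r = 0.90 each) and Scpep1 (r = 0.87). Igfbp3 was closest to Bmp4 (r = 0.94), Sema6d and Tfpi (r = 0.93 each), and Igfbp4 to Mecom (r = 0.95), Flrt2 (r = 0.94) and Tfpi (r = 0.93). Igfbp7 was closest to Serpinh1, Ramp2 and Col15a1 (r = 0.96, 0.95 and 0.94), and Igf1r to Dnajb12, Nub1 and Rcc2 (r = 0.80, 0.78 and 0.77). Between members, Igfbp3 with Igfbp4 gave r = 0.86, Igfbp5 with Igfbp6 0.84 and Igfbp5 with Igfbp7 0.73. Igfbp6 and Igfbp4 gave 0.60 and 0.55 with Igfbp7, and Igf1 with Igfbp6 gave 0.53. The ligand with its receptor gave -0.19, and the lowest pair, Igf1r with Igfbp4, -0.29.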

How the data were processed

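Single-cell RNA sequencing libraries (10x Genomics 3′) of 16 disc samples were used, with groups taken from the GEO labels. Per the submitters' processing notes the reads were handled in Partek and rn6; the study's methods give filters on mitochondrial share, genes and UMIs per cell and K-means clustering of each group apart. The handling of doublets and free RNA is not given in the sources used here. For each cell the authors deposited gene values as log2(CPM + 1). The deposited total of each cell is an expected count, not whole in most cells, and the deposited percent columns give mitochondrial and ribosomal reads. Dividing out the total gave whole UMIs within 0.02 for 99.4% of values above 0, and edgeR 4.0.16 and DESeq2 1.42.0 were run on these recovered counts as alternatives.

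The log2 values were turned back to CPM and averaged over the cells of a class in each library with at least 20 such cells. Tests were two-sided limma 3.58.1 (R 4.3.3) on log2(mean CPM + 1) with a pseudocount of 1 CPM, over genes listed in each group of the fit with at least 1 CPM in at least 4 libraries, the rat as block and adjustment over all genes tested. Igfbp2 passed in no fit, and the other 7 passed in each main fit. Igfbp3 did not pass in IVD cells on the 8 libraries of 8 weeks alone, or in NP without cells holding markers of other types. The study took LDP and CON discs from each animal, and libraries whose labels carry the same number were read as the same rat. The labels themselves name no animal. The correlation of the paired deviations over genes ran from -0.18 to 0.45 over the 8 rats in IVD cells. It ran from -0.59 to 0.61 in whole libraries, so it does not establish the pairing. With the rat as block, P-values of LDP against CON measure how far the change within a rat varies from rat to rat. In the comparison of times in CON, which has no block, they measure the spread between rats. Blocked fits that hold both times, as in IVD cells and whole libraries, share a common estimate of the spread. Leaving out a rat of the other time can therefore alter the p of a change. For Igfbp4 in IVD cells the SE was 0.32 at both times, and 0.13 on the 8 libraries of 8 weeks alone. The scripts were tested on simulated data. Figures were drawn with matplotlib 3.10.9 in Python 3.11.15.

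The 8 genes, the 34 genes of the pathway and the marker lists were chosen with earlier results of these data known. The text names each of the 8, the pathway genes called in any comparison and the lowest and highest of that list per comparison, and the 3 genes most like each member. The cell populations picked by markers, the fit on 8 libraries alone and the removal of cells with markers of other types were chosen after the values were seen. The measure by which the numbered LDP subclusters were matched to names is not reported here. The tables hold no deposited comparisons.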

Additional observations from a re-analysis of the deposited data

Results flagged for a closer look

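Among 182 sets of 4 libraries of 1 gene and cell class, 16 had a single library that stood apart from the other 3 by Dixon's test, and chance flags about 1 in 20 groups. For Igf1r the library was LDP of rat 4 at 2.30 CPM in IVD cells (others 6.57 to 7.04) and 2.16 CPM in IAF cells (others 6.26 to 6.77), LDP of rat 6 at 8.14 CPM in IVD cells (others 5.15 to 5.57), and CON of rat 6 at 8.56 CPM in outer disc cells (others 6.19 to 6.49). For Igfbp2, CON of rat 4 stood out in 5 sets: 5.37 CPM in IVD cells (others 0.08 to 0.30), 0.59 CPM in IAF (others 0 to 0.09), 48.1 CPM in OAF (others 0 to 1.31), 1.21 CPM in endothelial cells (others 0) and 9.11 CPM in outer disc cells (others 0.03 to 0.23). LDP of rat 8 had 2.60 CPM of Igfbp2 in endothelial cells, where the others were listed at 0.

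For Igfbp3, CON of rat 3 was at 19.7 CPM in IAF cells (others 0 to 2.72) and 5.76 CPM in inner disc cells (others 0.90 to 1.72), and LDP of rat 1 at 7.69 CPM in myeloid cells (others 2.49 to 3.10). For Igfbp4, CON of rat 8 was at 2.34 CPM in IVD cells (others 3.43 to 3.53). For Igfbp6, LDP of rat 2 was at 778 CPM in outer disc cells (others 338 to 377) and 46.5 CPM in inner ones (others 23.96 to 27.5).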

How the results depend on the processing

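The 66 results on single members were recomputed under alternatives that gave 1110 values: 1039 kept direction and side of the threshold, 17 passed it newly, 12 no longer passed and 42 turned direction. The number of members called in LDP against CON, 0 by limma, was by DESeq2 2 in whole libraries at 2 weeks, 2 at 8 weeks, 2 in IVD cells at 2 weeks, 3 at 8 weeks, 1 in NP, 2 in IAF and 1 in OAF. It was 1 (Igfbp4) in IVD cells at 8 weeks when the 8 libraries of 8 weeks were fitted alone, and 0 to 1 (Igf1r, without the pair of rat 4) with each rat left out. Between the times, 2 to 5 members were called with each CON library left out: Igfbp5 lost its call in 10 of 15 alternatives, Igfbp7 without rat 3 and without rat 5, and Igfbp3 was called without rat 2 and by DESeq2. Without the replicate block the members called stayed at 0 in each LDP against CON comparison, and the genes called without and with the pairing were 6 and 14 in IVD cells at 2 weeks, 39 and 30 at 8 weeks, 154 and 139 in OAF and 2 and 1 in whole libraries at 8 weeks.

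Of the changes of direction most were of Igfbp7, whose log2 change became 0.04 when centred on all genes, 0.02 as a mean of log2 values over cells, 0.03 by edgeR and 0.05 by DESeq2 in whole libraries at 8 weeks. In IVD cells at 8 weeks Igfbp7 became 0.15, 0.31, 0.10 and 0.12 in that order, 0.04 in disc cells picked by markers and 0.26 in inner ones. Igfbp7 became -0.05 in outer disc cells at 2 weeks, 0.02 centred and 0.04 as a mean of log2 values in NP, -0.16 as a mean of log2 values in OAF, and 0.08 centred, 0.06 from summed counts, 0.16 by edgeR and 0.17 by DESeq2 in endothelial cells. Igfbp3 became 0.16 in inner cells at 2 weeks, Igf1 in NP 0.03 with a pseudocount of 10 and 0.04 as a mean of log2 values, Igfbp6 in NP 0.14 and Igf1r in IAF 0.00 as a mean of log2 values. The causes were not tested.

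With each rat left out, the log2 change ran for Igf1r from -0.28 to 0.08 and for Igfbp3 from -0.78 to 0.03 in whole libraries at 2 weeks, and for Igfbp7 from -0.20 to 0.05 at 8 weeks. In IVD cells it ran for Igfbp3 from -1.40 to 0.03 and for Igfbp7 from -0.19 to 0.12 at 2 weeks, and for Igfbp7 from -0.16 to 0.08 at 8 weeks. In NP it ran for Igf1 from -0.48 to 0.50, Igfbp6 from -0.40 to 0.12 and Igfbp7 from -0.23 to 0.08, in IAF for Igfbp3 from -1.64 to 0.15 and Igfbp7 from -0.14 to 0.20, in OAF for Igfbp3 from -0.91 to 0.27, and in endothelial cells for Igfbp7 from -0.12 to 0.07.

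Of all genes, limma called 0, 1, 14, 30, 0, 0, 139, 0 and 0 in whole libraries and IVD cells at 2 and 8 weeks, NP, IAF, OAF, endothelial and myeloid cells. In the same order DESeq2 called 143, 209, 285, 566, 192, 194, 194, 48 and 2, and edgeR 0, 2, 23, 29, 1, 0, 137, 46 and 1. With each rat left out limma called 0 to 7 genes in IVD cells at 2 weeks, 0 to 514 at 8 weeks (514 without rat 4 and 0 to 48 without each other rat), 51 to 89 in OAF and 1025 to 2340 between the times, and 114 at 8 weeks from those 8 libraries alone. Centring on all genes gave 26 higher and 3 lower in IVD cells at 2 weeks, against 10 and 4, and 25 and 10 at 8 weeks, against 13 and 17, and 1028 and 1088 between the times, against 775 and 1297.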

Other observations

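Some values belong to no comparison. In CON at 8 weeks, where no class is named endothelial, the unnamed cells carried Igfbp3 at 84.3, 106, 155 and 121 CPM, and in LDP at 8 weeks, where there is an endothelial class, the unnamed cells were at 0, 20.7, 0 and 0 CPM and the endothelial class at 109, 153, 112 and 157 CPM. The endothelial class of LDP at 8 weeks also varied widely in Igfbp5, at 447 ± 454 CPM (SD, n = 4).

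For some members the step from IAF to NP differed between the groups. In CON at 2 weeks the IAF exceeded the NP of the same library in 4 of 4 libraries for Igf1, Igfbp4, Igfbp5 and Igfbp6, by 1.77, 1.73, 0.77 and 1.35 on the log2 scale on average, and in LDP the same differences were -0.28, 0.13, -0.16 and -0.15. For the other tested members the step was alike or less changed, at -0.18 in both groups for Igf1r, 0.17 and 0.24 for Igfbp7 and 0.58 and 0.38 for Igfbp3 in CON and LDP. These subclusters were drawn separately in the 2 groups, and the difference between the groups was not tested.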
